A study of Mus musculus with 24 samples.

Results

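Glo1 and 9 further genes of cellular redox defence, Gsr, Nqo1, Gclc, Gclm, Hmox1, Txnrd1, Srxn1, Slc7a11 and Nfe2l2, were followed across 24 mouse expression arrays. The 10 genes were taken by name. Each is named alone by 1 probe set, out of 19505 genes that the array names in this way. The group was chosen by the measured difference between the control and SL arrays at embryonic day 14.5, in which Glo1 was 1 of the 10 genes of the array (0.0513%) past the adjusted threshold. The values of that comparison are therefore given as a description, without a test.

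NRF2, the transcription factor encoded by Nfe2l2, is held at a low level by KEAP1, which marks it for degradation, and it accumulates when reactive electrophiles or oxidants modify KEAP1. Together with small MAF proteins it binds antioxidant response elements near genes for glutathione synthesis, thioredoxin reduction, quinone reduction and haem breakdown. Much of this control acts on the NRF2 protein, which arrays of RNA do not measure. Glyoxalase 1, encoded by Glo1, uses glutathione to remove methylglyoxal, a reactive by-product of glycolysis. The liver is rich in glutathione, and during development the fetal liver is also a blood-forming organ in which red cell precursors handle large amounts of haem.

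The study compared grandoffspring of control and of obese male mice, the latter written SL in the labels, in the ICR-CD1 strain. Total RNA was hybridised from 6 groups of 4 samples. The control and the SL groups were each sampled at embryonic day 7.5 (ED7.5) and embryonic day 14.5 (ED14.5), both labelled as whole embryo, and at postnatal day 7.5 (PD7.5), labelled as liver. The groups carry no treatment or genotype of their own beyond the line of the grandfather. The labels give neither sex, litter nor pooling, so p-values measure the spread between these samples only, which may in part be technical.

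Values are the deposited log2 intensities, so that a difference of 1 is a doubling, and the level of a probe set cannot be set against that of another gene. An array's background was taken as the 75th percentile of its 5222 negative control probes, which lay between 5.05 and 6.53, and 48.3% to 64.1% of genes were above it. The markers did not match the whole-embryo labels throughout. On ED7.5 arrays 10 of 10 decidua markers were above background on every array and 0 of 6 epiblast markers were. Hepatocyte markers (9 of 10) and erythroid markers (6 of 6 measured) were above background on all arrays of each ED14.5 group, while 0 of 8 neuron and 0 of 7 skeletal muscle markers were so in either ED14.5 group. PD7.5 arrays had 10 of 10 hepatocyte markers above background. Comparisons between ages are thus comparisons between kinds of tissue as well, and in such bulk samples fewer cells of a type and less RNA per cell cannot be told apart.

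Promoter windows from RefSeq (GRCm38.p6; 250 bases before to 50 after a start site) were held for 7 of the 10 genes, in 9 windows. They were searched on both strands for the core of the antioxidant response element, TGACNNNGC, since this is the letter pattern that NRF2 is known to bind. The core was found in windows of 4 genes, Gclm, Txnrd1, Srxn1 and Nfe2l2 itself, and each match is shown with 10 bases on either side and the core in capitals. The sequences are 5′ to 3′ on the minus strand.
Gclm, chr3:122245413-122245441: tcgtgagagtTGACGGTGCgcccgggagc
Txnrd1, chr10:82859104-82859132: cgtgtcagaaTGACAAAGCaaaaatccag
Srxn1, chr2:152105542-152105570: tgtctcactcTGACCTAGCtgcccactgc
Nfe2l2, chr2:75704885-75704913: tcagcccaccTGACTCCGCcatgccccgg

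The Gclm match is centred at position -130 from the start site and the Txnrd1 match at -88, in 1 of the 3 Txnrd1 windows. The Srxn1 match lies at 33 bases after the start and the Nfe2l2 match at -236. Only the Nfe2l2 core reads in the direction of its gene. The windows of Glo1, Nqo1 and Slc7a11 do not hold these letters, and sequence outside the windows was not searched. The core occurs in 4071 of all 32851 windows of this length (12.4%), so a match describes the sequence and is not shown to be a bound site.

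The comparison of the lines at ED14.5 was the one in which Glo1 stood out. The 4 control arrays read 10.83, 10.88, 10.83 and 10.82 for Glo1, and the 4 SL arrays 11.46, 11.67, 11.52 and 11.50. All SL arrays were above all control arrays, with a gap wider than the range of either group. The means were 10.84 ± 0.0263 and 11.54 ± 0.0891 (SD, n = 4), a difference of 0.70 (SE 0.087) or 1.62-fold.

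Gsr, glutathione reductase, which returns oxidised glutathione to its reduced form at the cost of NADPH, had the next largest difference. Its control arrays read 10.45, 10.55, 10.63 and 10.42, and its SL arrays 10.94, 10.84, 11.12 and 10.97. These groups did not overlap either. The means differed by 0.45 (SE 0.0993), from 10.51 ± 0.0969 to 10.97 ± 0.116, which is 1.37-fold.

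Srxn1, sulfiredoxin, which repairs over-oxidised peroxiredoxins, was the third gene without overlap. Its controls read 8.54, 8.80, 8.72 and 8.58 and its SL arrays 8.91, 8.95, 9.11 and 9.06. The difference was 0.35 (SE 0.1; 1.27-fold). Nqo1, a quinone reductase and a much used readout of NRF2 activity, read 7.70, 8.003, 8.04 and 7.73 in controls against 8.36, 7.92, 8.25 and 8.11. One SL array lay within the control range, and the difference was 0.29 (SE 0.131; 1.22-fold).

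The other 6 genes differed by 0.08 or less in either direction. Gclc and Gclm, the catalytic and modifier subunits of the ligase that limits glutathione synthesis, differed by 0.05 (SE 0.0854) and 0.01 (SE 0.0841). Hmox1, the inducible haem oxygenase, differed by 0.02 and Txnrd1, the cytosolic thioredoxin reductase, by 0.07. Nfe2l2 RNA differed by -0.08 (SE 0.127), with control arrays from 7.16 to 7.74 and SL arrays from 7.27 to 7.41. Slc7a11, the cystine importer, was not above background on any array of this age. So the genes that lay apart were Glo1, Gsr and Srxn1, and the ligase subunits, Hmox1 and Nfe2l2 were not among them.

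**Figure D1:**
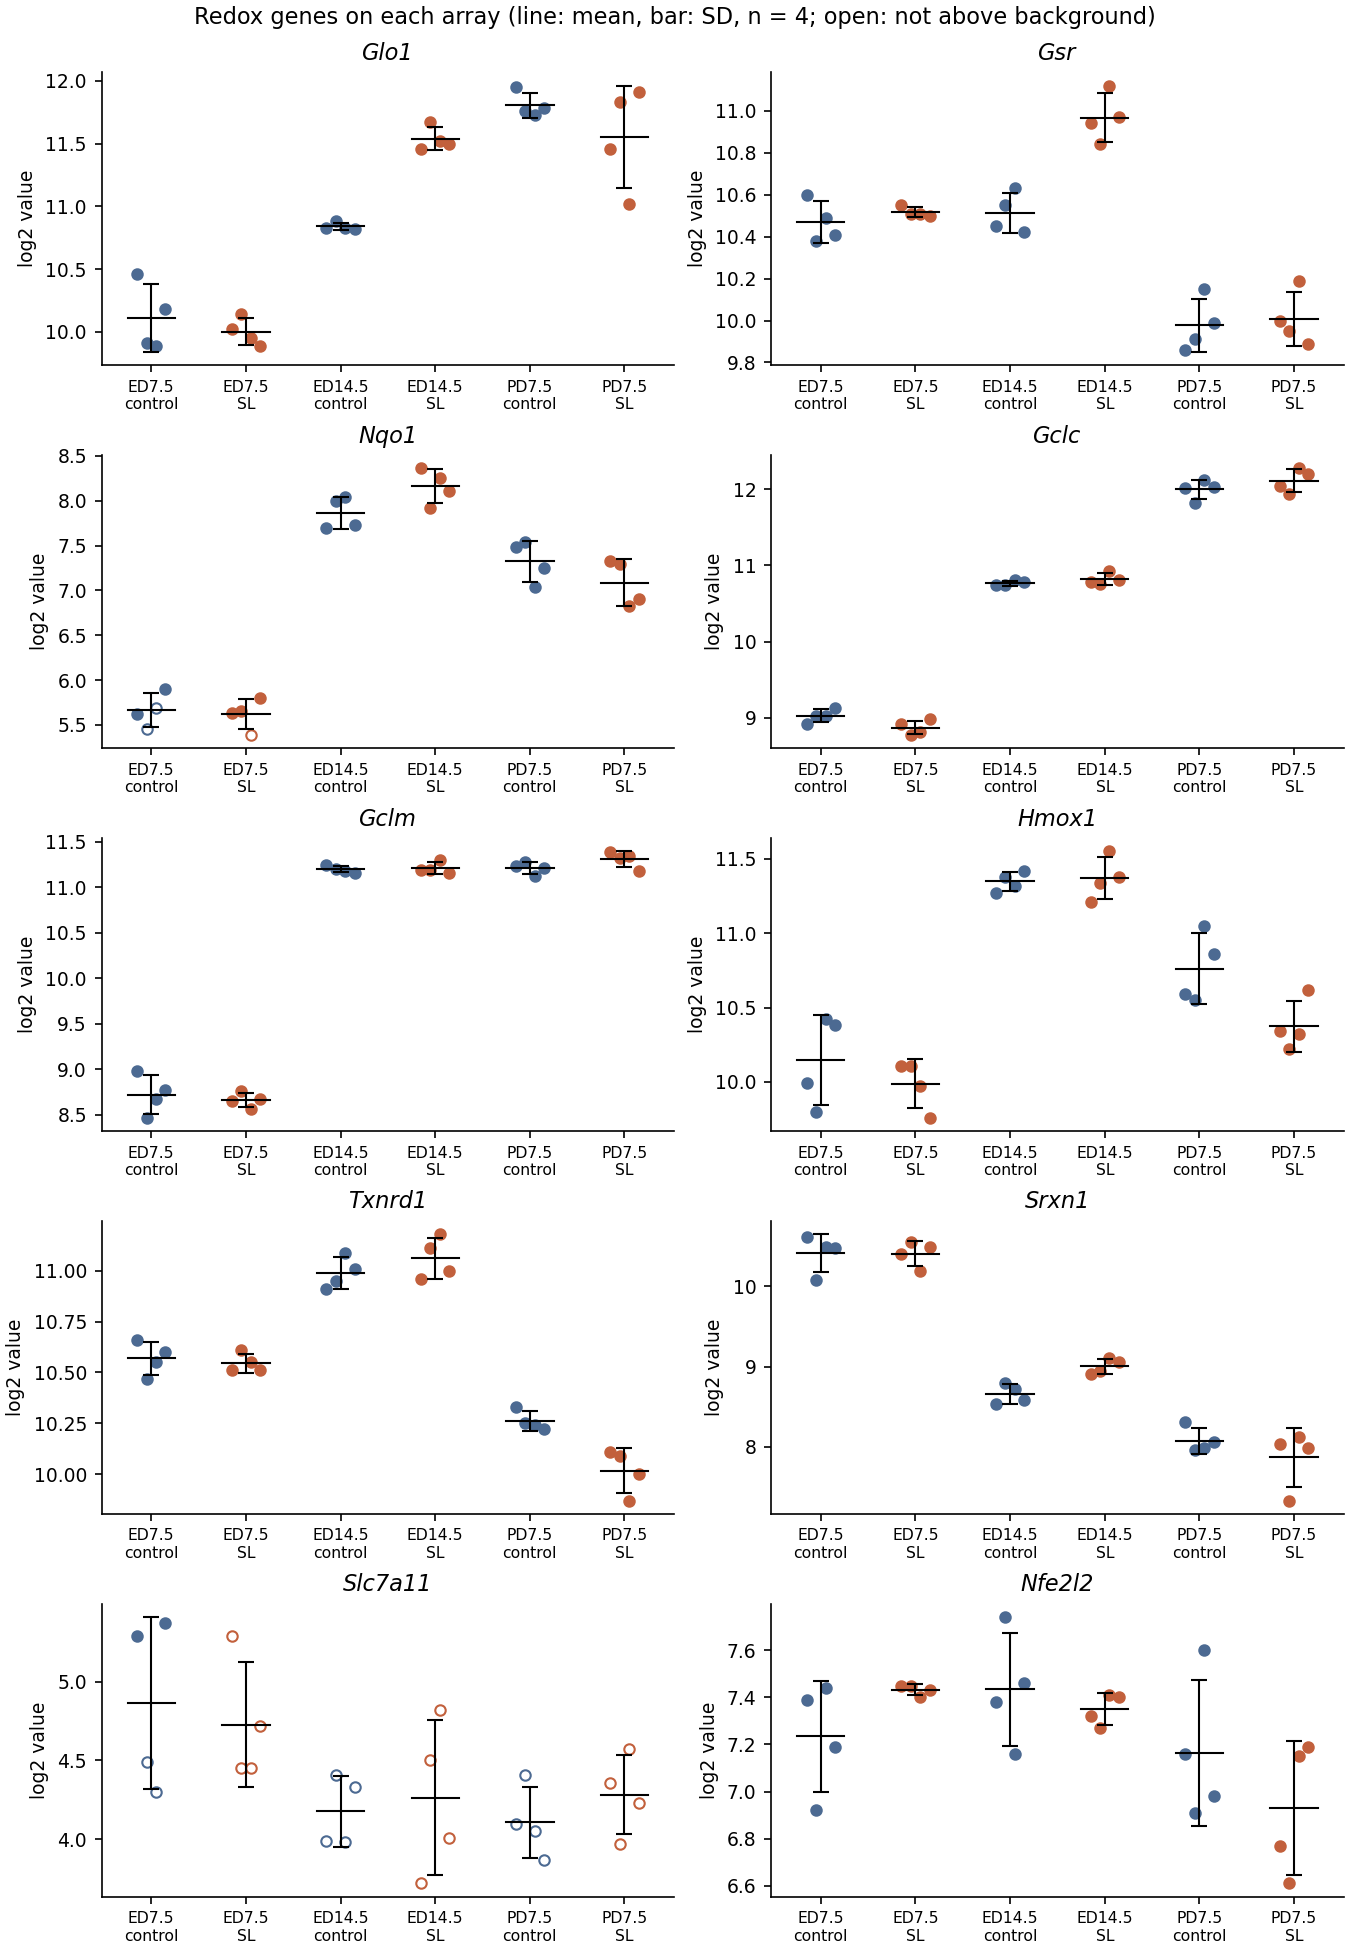
Deposited log2 value of each of the 10 genes on each of the 24 arrays, by age and line of the grandfather; points are arrays (open where not above the array's background), lines are means and bars SD (n = 4). At ED14.5 the SL and control arrays of Glo1, Gsr and Srxn1 do not overlap, while those of Gclc, Gclm, Hmox1, Txnrd1 and Nfe2l2 do.

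In all, 9 of the 10 genes had a difference above 0 at ED14.5, against 50% of all genes, with a median of 0.08 against 0.00. Under quantile normalization Hmox1 moved to -0.0013 and 8 were above 0. Groups without overlap were seen for 3 of 10 genes, where 7.98% of all genes had none and 3.71% had none with SL higher. As this contrast helped to choose the genes, nothing is read from these counts. Hepatocyte markers had a median difference of 0.00 at this age (5 of 10 above 0; array means 11.61 to 11.75 in controls, 11.63 to 11.79 in SL). Erythroid markers had -0.13 (1 of 6 measured above 0), with array means from 11.90 to 12.06 in controls and from 11.80 to 11.92 in SL. Kupffer cell markers had -0.15 (3 of 10 above 0; array means 7.39 to 7.84 and 7.48 to 7.62) and neutrophil markers 0.23 (5 of 9 above 0; 8.24 to 8.67 and 8.43 to 8.75). The part of these cells in the Glo1, Gsr and Srxn1 differences was not tested.

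A wider set of 108 redox genes in 9 lists, of which 98 were measured, was described in the same comparison. Of these, 70 were above 0 (50% of all genes were), with a median of 0.08. Where 7.98% of all genes had groups without overlap (3.71% with SL higher), 9 of the 98 did (8 higher and 1 lower in SL). The largest difference among these was that of Gsta2 (3.09 to 4.11, 1.02), but it was not above background on any array of this age. Those 9 include Cth, cystathionine gamma-lyase, which makes cysteine for glutathione (8.64 to 9.05, a difference of 0.40). Msra, a methionine sulfoxide reductase, is another (8.65 to 8.98, 0.33). Gsta4, a glutathione S-transferase that handles lipid aldehydes, differed by 0.28, and Hmox2, the constitutive haem oxygenase, by 0.21. Nfe2l1, a relative of NRF2, was the gene that lay lower (9.89 to 9.70, -0.19). Of 7 genes measured for methylglyoxal and aldehyde handling apart from Glo1, 0 had groups without overlap, and of 14 other classical NRF2 targets 0 did. With 7.98% of all genes without overlap, 0 in lists this short sets no list apart. The lists were also drawn up with earlier results known, so nothing is read from these counts.

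Glo1 lies on mouse chromosome 17, and a segmental duplication that spans it and some of its neighbours is known among laboratory mouse strains. The values of 6 neighbouring genes were therefore set beside those of Glo1. In the order of the RefSeq annotation these are Mdga1, Zfand3 and Btbd9 on one side and Dnah8, Glp1r and Umodl1 on the other. Zfand3 and Btbd9 were above background on all 24 arrays, Mdga1 on 10, and Dnah8, Glp1r and Umodl1 on 0.

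Btbd9, a BTB-domain gene next to Glo1, showed at ED14.5 a picture close to that of Glo1. It read 8.46, 8.06, 8.15 and 8.05 in controls and 8.83, 8.84, 8.78 and 8.90 in SL. The groups did not overlap, and the means of 8.18 ± 0.192 and 8.84 ± 0.0504 (SD, n = 4) differed by 0.65 (SE 0.112; 1.57-fold). Zfand3, the next gene out, differed by 0.21 (SE 0.115), and its groups overlapped. Dnah8, on the other side of Glo1, differed by 0.62 (SE 0.265), but all its values lay below background.

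Outside ED14.5, Glo1 and Btbd9 lay to the same side of their group means on the 2 arrays farthest from their group in Glo1. On the PD7.5 SL array of replicate 3, Glo1 was 0.53 below its group's mean (-0.53) and Btbd9 0.46 below (-0.46), and on replicate 4 they lay 0.35 and 0.33 above. In values centred on the group mean, the correlation of Glo1 with Btbd9 was r = 0.57 (Spearman rho = 0.27) over 24 arrays. It was 0.11 without those 2 arrays, so that it rests on them, and by age it was 0.02, -0.08 and 0.89 over 8 arrays each. From ED7.5 to ED14.5 in controls, Btbd9 differed by 0.02 (adjusted p = 0.92 in the limma test) where Glo1 rose by 0.73. Towards PD7.5 liver both rose in controls, Btbd9 by 1.25 (adjusted p = 3.17e-05) and Glo1 by 0.97. In the SL line these steps were 0.71 and 0.44 for Btbd9 and 1.54 and 0.02 for Glo1, given as values. DNA copy number was not measured here, and its part in these values was not tested.

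**Figure D2:**
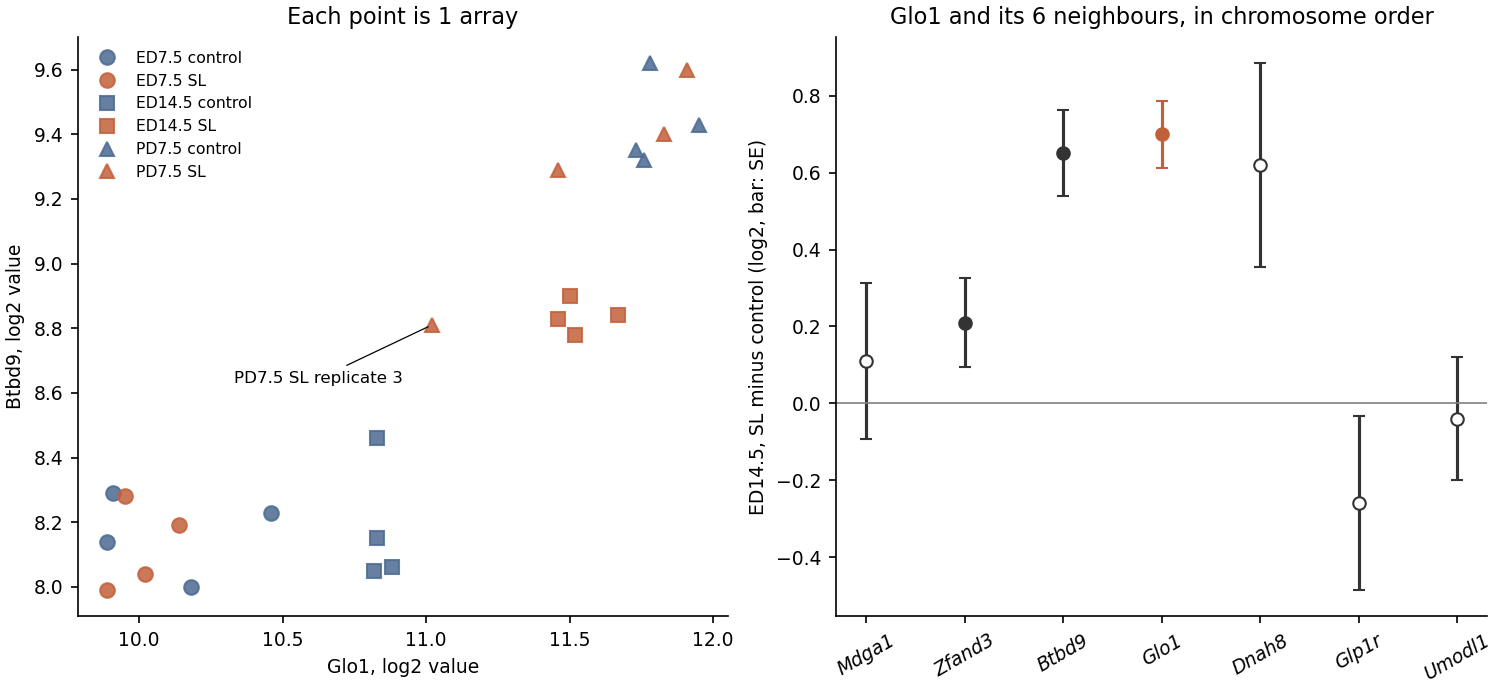
Left, log2 value of Btbd9 against that of Glo1 on each of 24 arrays, by group; right, difference of SL from control at ED14.5 (log2, bars are SE) for Glo1 and its 6 neighbours in chromosome order, filled where the gene was above background on all 24 arrays. Glo1 (0.70) and Btbd9 (0.65) lie together, and PD7.5 SL replicate 3 is low in both.

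The genes whose centred values followed Glo1 most closely, out of 7771 genes above background on all arrays, were Cul2 (r = 0.88, rho = 0.76), a cullin of a ubiquitin ligase, Tmed2 (0.82, rho 0.69), a cargo receptor of the early secretory path, and Psmc5 (0.78, rho 0.56), a proteasome subunit. Without the 2 arrays on which Glo1 was farthest from its group they had r of 0.79, 0.73 and 0.59. Btbd9 ranked 194 in this order. Among the redox genes themselves, 8 were above background on all arrays and gave 28 pairs with a median r of 0.27. The highest were Hmox1 with Nfe2l2 (0.58) and Glo1 with Txnrd1 (0.57). Glo1 with Gclc had the lowest, at -0.40, and Glo1 with Gsr had -0.34, which became 0.01 without the same 2 arrays. Glo1 and Gsr, which both lay higher in SL at ED14.5, thus did not follow each other within groups. These correlations share arrays and are descriptions.

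At ED7.5, 0 of the 10 genes passed the threshold of the limma test with Benjamini-Hochberg adjustment, where 0.00513% of all genes passed. Adjusted p ranged from 0.956 to 1, 0 genes had an unadjusted p below 0.05, and a fit with a variance trend called 0 as well. Glo1 read 10.46, 9.91, 9.89 and 10.18 in controls and 10.02, 10.14, 9.95 and 9.89 in SL. The groups overlapped, with a difference of -0.11 (SE 0.142, adjusted p = 0.984), and control replicate 1 set its sign, since the value was 0.0054 without that array. Gsr differed by 0.04 and Srxn1 by -0.01. Nfe2l2 differed by 0.20 (SE 0.126), and by 0.0928 without control replicate 2. Hmox1 differed by -0.16 (SE 0.159), and its value ran from -0.0705 without control replicate 3 to -0.28 without control replicate 2. It was -0.0868 without control replicate 4 and -0.0863 without SL replicate 4. Gclc differed by -0.15 (SE 0.098). The median over the 10 genes was -0.05 against 0.00 over all genes, and groups overlapped for all 10, where 3.05% of all genes did not overlap.

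In PD7.5 liver 0 of the 10 genes passed, where 0% of all genes passed in the limma test, with adjusted p from 0.623 to 0.966. The fit with a variance trend also called 0, and 1 gene, Hmox1, had an unadjusted p below 0.05. Hmox1 read 10.59, 10.55, 11.05 and 10.86 in controls and 10.34, 10.22, 10.32 and 10.62 in SL. A single SL array reached into the control range. The difference was -0.39 (SE 0.157, adjusted p = 0.623), from 10.76 ± 0.238 to 10.37 ± 0.169.

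Txnrd1 was the gene whose PD7.5 groups did not overlap, as was so for 4.43% of all genes (2.3% with SL lower). It read 10.33, 10.25, 10.24 and 10.22 in controls and between 9.87 and 10.11 on the 4 SL arrays. The difference was -0.24 (SE 0.116, adjusted p = 0.65). Nqo1 differed by -0.24 (SE 0.173, adjusted p = 0.761; -0.16 without SL replicate 3) and Nfe2l2 by -0.23 (SE 0.198, adjusted p = 0.801; -0.08 without control replicate 3 and -0.12 without SL replicate 2).

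The Glo1 difference of the neonatal liver rested on few arrays. Controls read 11.95, 11.76, 11.73 and 11.78, and SL arrays 11.46, 11.83, 11.02 and 11.91. The SL arrays were spread over the widest range of any Glo1 group (SD 0.407), and those of replicates 2 and 4 lay within the control range. The difference was -0.25 (SE 0.197, adjusted p = 0.784) and -0.07 without SL replicate 3. Gsr, with controls from 9.86 to 10.15 and SL arrays from 9.89 to 10.19, differed by 0.03 (adjusted p = 0.966). Srxn1 differed by -0.21 (SE 0.189, adjusted p = 0.818), by -0.13 without control replicate 1 and by -0.03 without SL replicate 2.

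Gclc and Gclm lay on the other side of 0, by 0.12 (SE 0.133, adjusted p = 0.856) and 0.10 (SE 0.114, adjusted p = 0.853). Over the 10 genes, 4 differences were above 0 (50.7% of all genes were) and the median was -0.22, against 0.00 for all genes. The whole erythroid list was lower in the same arrays, with a median of -0.55, 0 of 6 measured markers above 0, and array means of 9.26 to 10.19 in controls and 8.07 to 9.74 in SL. Kupffer cell markers had -0.24 (1 of 10 above 0; array means 9.13 to 9.23 and 8.85 to 9.11), and neutrophil markers 0.38 (8 of 9 above 0; 8.98 to 9.73 and 9.58 to 9.81). The separation of positive from negative control probes, a measure of hybridisation quality given as an area under the curve, was 0.906 to 0.92 in controls and 0.897 to 0.904 in SL. The part of these in the Hmox1, Txnrd1 and Srxn1 differences was not tested.

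Among the 98 wider redox genes, 0 passed at ED7.5 and 0 at PD7.5 in the limma test. Groups without overlap numbered 5 at ED7.5 (2 higher and 3 lower in SL), where 3.05% of all genes had none. They numbered 10 at PD7.5 (1 higher and 9 lower), where 4.43% of all genes had none and 2.3% had none with SL lower. At these ages 58 and 36 of the 98 genes were above 0. Their medians were 0.03 and -0.04.

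The difference between the lines can itself be compared between ages. Between PD7.5 and ED7.5, which share no array and did not serve to choose the genes, 0 of 10 genes passed a limma test of the interaction in a fit of all 24 arrays, where 0.00513% of all genes passed. Adjusted p ranged from 0.55 to 0.989, and 0 genes had an unadjusted p below 0.05. Comparisons that include ED14.5 are given as values. The Glo1 difference at ED14.5 exceeded that at ED7.5 by 0.81 (SE 0.213), that of Gsr by 0.41 (SE 0.134), that of Srxn1 by 0.36 (SE 0.212) and that of Nqo1 by 0.33 (SE 0.208). The PD7.5 difference minus that at ED14.5 was -0.95 (SE 0.213) for Glo1 and -0.42 (SE 0.134) for Gsr. It was -0.56 for Srxn1, -0.53 for Nqo1, -0.41 for Hmox1 and -0.32 for Txnrd1.

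**Figure D3:**
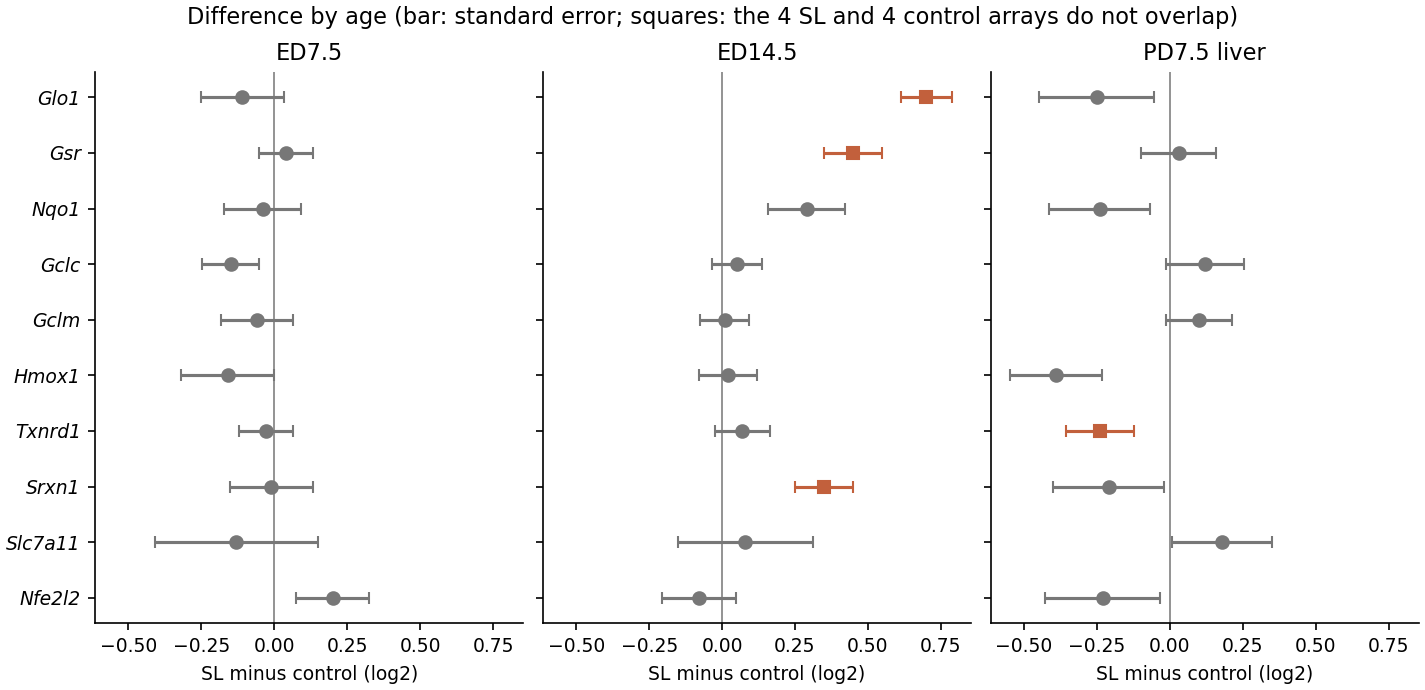
Difference of SL from control (log2, bars are SE, 4 against 4 arrays) for the 10 genes at ED7.5, ED14.5 and in PD7.5 liver; squares mark groups that do not overlap. Glo1, Gsr and Srxn1 are squares above 0 at ED14.5, Txnrd1 is a square below 0 at PD7.5, and all 10 genes overlap at ED7.5.

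Age, and with it tissue, moved most of the genes far more than the line did. These comparisons were run within each line. The control and SL lines share no array, but the ED14.5 arrays are those whose contrast was known when the genes were gathered. From ED7.5 to ED14.5 in controls 8 of 10 genes passed (6 higher, 2 lower), where 51.9% of all genes passed (25.6% higher, 26.3% lower). In the SL line 8 passed (7 higher, 1 lower), where 53.6% of all genes did (26.4% higher, 27.1% lower). Glo1, Nqo1, Gclc, Gclm, Hmox1, Txnrd1 and Srxn1 passed in the same direction in both lines, which is 7 of 10 against 44.4% of all genes. Between ED14.5 and PD7.5 liver 7 passed in controls (2 higher, 5 lower), where 45.2% of all genes passed (20.5% higher, 24.6% lower). In SL 7 passed (1 higher, 6 lower), where 45.8% did (21.4% higher, 24.4% lower). Gsr, Nqo1, Gclc, Hmox1, Txnrd1 and Srxn1 did so in the same direction in both lines, 6 of 10 against 37% of all genes. These counts include Glo1, Gsr and Srxn1, whose ED14.5 difference between the lines served to choose the genes. Gsr passed the first step in SL (0.45) but not in controls (0.05). For that reason nothing is read from the counts against the shares.

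Glo1 rose at each step in controls, from 10.11 ± 0.268 at ED7.5 to 10.84 ± 0.0263 at ED14.5 and 11.81 ± 0.0962 in PD7.5 liver. The first step was 0.73 (SE 0.137, adjusted p = 0.00116) and the second 0.97 (SE 0.102, adjusted p = 3.13e-05). In the SL line the group means were 9.999 ± 0.107, 11.54 ± 0.0891 and 11.56 ± 0.407, with steps of 1.54 (SE 0.0972) and 0.02 (SE 0.192). The SL steps of Glo1, and likewise those of Gsr and Srxn1, contain the ED14.5 difference between the lines by which the genes were chosen, so they are given as values and nothing is read from their contrast with the controls. The control steps of these genes use the ED14.5 control arrays, the other side of that difference. Their p-values are thus not independent of the choice either.

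The glutathione synthesis genes rose together at the first step. Gclm, which read 8.98, 8.47, 8.67 and 8.77 on ED7.5 control arrays, read 11.24, 11.20, 11.18 and 11.16 at ED14.5. That is a rise of 2.47 (SE 0.122, adjusted p = 5.74e-08) or 5.56-fold in controls, and of 2.55 (adjusted p = 9.98e-09) in SL. Gclc read 8.92, 9.03, 9.03 and 9.13 and then 10.74, 10.74, 10.81 and 10.78, a rise of 1.74 (SE 0.0949, adjusted p = 1.15e-07) or 3.34-fold.

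The subunits parted at the second step. Gclc rose again, to 12.01, 11.82, 12.12 and 12.03 in control livers, by 1.23 (SE 0.108, adjusted p = 9.09e-06) in controls and by 1.29 (adjusted p = 1.21e-05) in SL. Gclm differed by 0.01 (SE 0.0985, adjusted p = 0.948) and by 0.10 (adjusted p = 0.498). Gclm levels in the 4 groups of ED14.5 and PD7.5 overlapped one another in order, whereas the Gclc ranges of the ages lay apart.

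Gsr did not pass at the first step in controls and fell at the second, as Nqo1, Hmox1, Txnrd1 and Srxn1 did. Between ED7.5 and ED14.5 controls it differed by 0.05 (adjusted p = 0.749), and towards PD7.5 liver it fell by 0.54 (SE 0.113, adjusted p = 0.00293). In the SL line the steps were 0.45 (SE 0.0926) and -0.96 (SE 0.121). The ED14.5 SL group was the highest of the 6, as it was for Nqo1, Hmox1 and Txnrd1. For Gsr it lay apart from the next group, the ED14.5 controls, which is the difference by which the genes were chosen. The ED7.5 and ED14.5 control groups overlapped.

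Slc7a11 was above background on 2 of 24 arrays, both of them ED7.5 controls. Values there were 5.29, 4.49, 4.30 and 5.37, so the arrays of 1 group lay on both sides of background. Its ED14.5 controls were lower by 0.68 (a difference of -0.68, SE 0.247, adjusted p = 0.0406) in the limma test. That call was lost when any of ED7.5 control replicates 1 and 4 and ED14.5 control replicates 1, 3 and 4 was left out (adjusted p from 0.0536 to 0.111). No fold is given, since the values lie at or below background.

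Nqo1 was the gene with the second largest rise in controls. At ED7.5 it was near background, with 5.62, 5.45, 5.69 and 5.90 on control arrays, 2 of them above it, and at ED14.5 it read 7.70, 8.003, 8.04 and 7.73. The rise was 2.20 (SE 0.133, adjusted p = 2.47e-07) in controls and 2.54 (adjusted p = 1.19e-07) in SL. Towards PD7.5 it fell by 0.54 (SE 0.148, adjusted p = 0.0129) in controls and fell by 1.07 in SL (adjusted p = 0.000326).

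Hmox1 had its highest values at ED14.5, where controls read 11.27, 11.38, 11.32 and 11.42, against 9.99, 9.80, 10.42 and 10.38 at ED7.5. It rose by 1.20 (SE 0.149, adjusted p = 6.03e-05) and fell by 0.59 (SE 0.135, adjusted p = 0.00512) towards PD7.5 in controls. In SL it rose by 1.38 (adjusted p = 4.78e-06) and fell by 1.0 (adjusted p = 0.000135). Hmox1 thus peaked in the ED14.5 samples, in which erythroid markers had a mean percentile among named genes of 98.8 in controls against 41.5 at ED7.5 and 85.6 at PD7.5. The part of these cells in the Hmox1 values was not tested.

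Txnrd1 also was highest at ED14.5. Its control levels were 10.57 ± 0.0801, 10.99 ± 0.0803 and 10.26 ± 0.0505 at the 3 ages, with steps of 0.42 (SE 0.0983, adjusted p = 0.00447) and -0.73 (SE 0.101, adjusted p = 0.000207). In SL the steps were 0.52 (adjusted p = 0.000871) and -1.05 (adjusted p = 3.94e-05). All 3 ages were apart from one another.

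Srxn1 ran the other way from Nqo1 and Hmox1 at the first step. ED7.5 controls read 10.62, 10.08, 10.49 and 10.48, ED14.5 controls 8.54, 8.80, 8.72 and 8.58, and control livers 8.31, 7.96, 7.98 and 8.06. It fell by 1.76 (SE 0.136, adjusted p = 1.61e-06), which is 3.39-fold, and then fell by 0.58 (SE 0.124, adjusted p = 0.00322). In SL the steps were -1.40 (SE 0.11) and -1.14 (SE 0.177). Srxn1 thus had its highest levels in the decidua-marked ED7.5 samples. Of the genes with a core match in the windows shown above, Gclm and Txnrd1 rose at the first step in controls and Srxn1 fell. Nfe2l2 did not pass the limma test at that step (0.20, adjusted p = 0.321). The part of the element in these steps was not tested.

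Nfe2l2 itself had the flattest course of the genes above background on all arrays. Its 6 group means lay between 6.93 and 7.43, each group's range overlapping that of the next lower mean. The ED14.5 SL arrays (7.27 to 7.41) and the PD7.5 SL arrays (6.61 to 7.19) did not overlap. In controls the steps were 0.20 (adjusted p = 0.321) and -0.27 (adjusted p = 0.26), and the first step in SL was -0.08 (adjusted p = 0.459). The second step in SL, -0.42 (SE 0.153, adjusted p = 0.0466), passed the limma test. It was no longer past the threshold when any of ED14.5 SL replicates 1 to 4 or PD7.5 SL replicates 1 and 2 was left out (adjusted p from 0.0695 to 0.108), nor with a variance trend (0.0504). On these arrays the regulator's probe set thus spanned a narrower range than those of Nqo1, Gclc, Gclm or Hmox1. Its values (6.61 to 7.74) lay nearer to the array backgrounds (5.05 to 6.53) than those of Gclc, Gclm or Hmox1. Whether this narrowed its range was not tested.

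**Figure D4:**
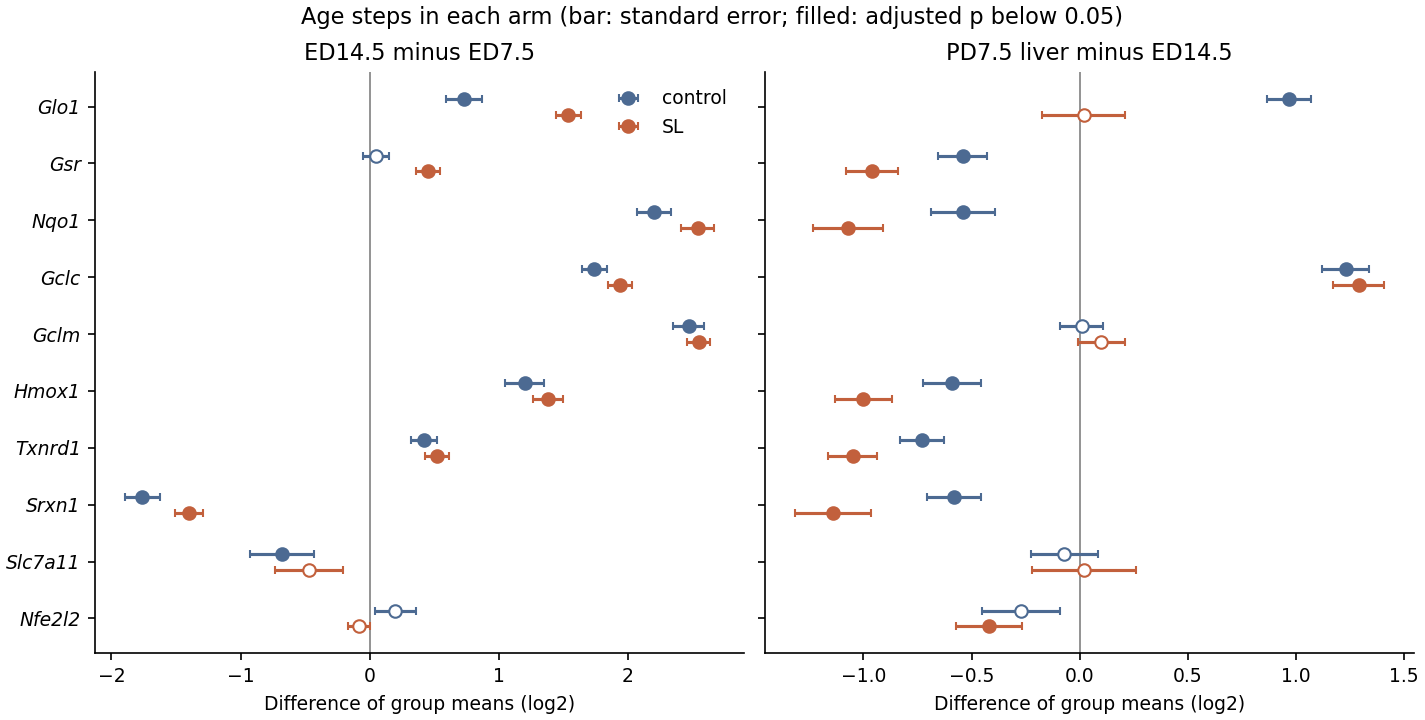
Difference between ages (log2, bars are SE, 4 against 4 arrays) for the 10 genes, from ED7.5 to ED14.5 (left) and from ED14.5 to PD7.5 liver (right), in the control and SL lines; filled points have an adjusted p below 0.05. Gclm, Nqo1 and Gclc rise most at the first step and Srxn1 falls, and at the second step Gclc rises in both lines. The SL steps of Glo1, Gsr and Srxn1 contain the ED14.5 difference by which the genes were chosen, and their control steps share its control arrays.

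The wider redox lists moved with age by step and by list. Of 98 genes, 55 rose and 22 fell from ED7.5 to ED14.5 in controls, where 25.6% of all genes rose and 26.3% fell. Towards PD7.5 liver 41 rose and 28 fell, where 20.5% of all genes rose and 24.6% fell, and the counts of single lists below are to be read against the same shares. Of 7 measured genes of methylglyoxal and aldehyde handling, 4 rose and 2 fell at the first step and 6 rose at the second. Hagh, glyoxalase 2, which completes the reaction that Glo1 begins, went from 7.61 to 8.65 (1.04, adjusted p = 8.65e-05) and then to 10.19 (1.54, adjusted p = 1.25e-05). Like Glo1 it rose at both steps in controls. In SL it rose at both as well, by 1.08 (adjusted p = 6.12e-05) and 1.39 (adjusted p = 1.62e-05).

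Of 5 genes of superoxide and peroxide removal, 5 rose at the first step and 4 at the second, among them Sod1, the cytosolic superoxide dismutase, by 1.25 (adjusted p = 1.78e-06) at the first. Of 15 glutathione S-transferases 14 rose and 1 fell at the first step, followed by 7 higher and 1 lower. Gsta3 was at least 25.8-fold higher at ED14.5, since it was not above background on any ED7.5 control array (4.28 against 10.34). Gstm2 fell from 9.17 to 7.02 (-2.15, adjusted p = 3.58e-06). Of 16 genes of glutathione synthesis and use, 7 rose and 4 fell. Gpx3, a secreted glutathione peroxidase, fell from 13.50 to 8.42 (-5.08, adjusted p = 3.47e-10), while Chac2, which degrades glutathione, rose by 4.45 (adjusted p = 2.85e-09).

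In the thioredoxin and peroxiredoxin list 8 of 13 genes rose and 2 fell. Txnrd2, the mitochondrial partner of Txnrd1, rose by 3.41 (adjusted p = 2.47e-09) and then fell by 1.67 (adjusted p = 9.26e-07), so that it too was highest at ED14.5. Txn1, thioredoxin itself, fell by 1.36 (adjusted p = 6.13e-07) at the first step. Among 15 NRF2 regulators and partners 6 rose and 6 fell at the first step. Nfe2, the erythroid relative of NRF2, was at least 15.4-fold higher at ED14.5 and then fell by 3.30 (adjusted p = 3.62e-06). Mafk, a small MAF partner, fell by 2.38 (adjusted p = 1.98e-07) at the second step. Of 14 other classical NRF2 targets, 6 rose and 4 fell at the first step in controls. Towards PD7.5 liver 7 of them rose and 2 fell, where Nqo1, Hmox1, Txnrd1 and Srxn1 fell. Osgin1 rose by 3.32 (adjusted p = 6.59e-08) and Abcc4 fell by 1.36 (adjusted p = 2.37e-05) at that step.

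Haem breakdown and cystine import partners had 5 of 8 genes higher and 0 lower at the first step, then 3 higher and 5 lower. Blvrb, a biliverdin reductase abundant in red cells, rose by 4.37 (adjusted p = 5.64e-09) and fell by 1.72 (adjusted p = 1.05e-06), as Hmox1 did on a smaller scale. Cth and Cbs, the enzymes that make cysteine from homocysteine, rose by 2.32 (adjusted p = 9.02e-07) and 1.98 (adjusted p = 1.48e-06) towards the neonatal liver. Of 5 genes of NADPH supply, 0 rose and 3 fell at the first step in the limma test. Me1, malic enzyme, fell by 2.83 (adjusted p = 9.15e-08) and then rose by 1.05 (adjusted p = 0.000166).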

How the data were processed

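RNA of 24 samples was hybridised to 24 single-channel arrays. The deposited values are log2 intensities, summarised with RMA in oligo, per the submitters' processing notes, and the sources used here give no version or genome build. RMA sets the arrays to a common distribution, so differences are relative to the other genes.

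Of 29129 features, 6923 were controls, 19572 named 1 gene and 2634 named none. The brightest probe set stood for the 55 genes with several, giving 19505 genes. Groups of 4 arrays were compared with limma 3.58.1 (R 4.3.3; lmFit and eBayes, two-sided, Benjamini-Hochberg over all genes, threshold 0.05), each comparison on its own arrays, checked on simulated data. Arrays of a group correlated at a median r of 0.989 (lowest 0.981), and no 2 arrays were identical. The number of arrays limits the precision.

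The 10 genes and the wider lists were chosen with earlier results of these data known. All 10 are described whatever their values. Of each wider list, up to 2 genes a direction with the largest change past the threshold could be named, or, at ED14.5, up to 2 without overlap. The 3 genes most like Glo1 by Pearson r were named. Where a group was nowhere above background, "at least" folds use the higher of background and value there. Alternatives were a variance trend with robust prior, the replicate number as a block, a filter on dim genes, quantile normalization, all 24 arrays in 1 fit, the mean of probe sets, and each array left out.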

Additional observations from a re-analysis of the deposited data

Results flagged for a closer look

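In 60 groups of 4 arrays (10 genes in 6 groups), 2 had an array whose gap to the nearest other passed Dixon's critical value for 4 values, and chance alone gives about 1 in 20 such groups. Glo1 in ED14.5 controls had its highest array at 10.88 (replicate 2), with the others between 10.82 and 10.83, in the tightest Glo1 group of all (SD 0.0263). Srxn1 in PD7.5 SL had its lowest array at 7.33 (replicate 2), with the others from 7.99 to 8.12.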

How the results depend on the processing

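The counts of genes past the threshold stayed within 1.5 times their value in every comparison and setting run. With each array left out in turn they ran from 7 to 8 in the first step in controls, at 8 in SL, at 7 in the second step in controls and from 6 to 7 in SL. For the line comparisons at ED7.5 and PD7.5 and for the interaction they were 0. At ED14.5 the difference ran from 0.65 to 0.72 for Glo1, 0.40 to 0.50 for Gsr, 0.31 to 0.40 for Srxn1 and 0.22 to 0.37 for Nqo1 with an array left out, and quantile normalization gave 0.68, 0.45, 0.35 and 0.29.

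Replicate numbers did not pair the samples: same-numbered arrays had correlations of their deviations from -0.17 to 0.07 at ED7.5, 0.0 to 0.03 at ED14.5 and -0.02 to 0.12 at PD7.5. With the replicate block the counts were 0, 0 and 0 for the line comparisons at ED7.5 and PD7.5 and the interaction, and 8, 8, 7 and 7 for the steps, as without it.

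Values whose sign turned were all small, and none of those tested was past the threshold. Under quantile normalization these were Hmox1 at ED14.5 (-0.0013), Gclm at the second step in controls (-0.0257), Nfe2l2 at the first step in SL (0.0014) and Slc7a11 at the second step in SL (-0.14). With an array left out, ED7.5 line differences ran from -0.185 to 0.0054 for Glo1, -0.114 to 0.0362 for Nqo1, -0.144 to 0.0276 for Gclm, -0.0590 to 0.0035 for Txnrd1, -0.123 to 0.0644 for Srxn1 and -0.323 to 0.0364 for Slc7a11. ED14.5 line differences ran from -0.0191 to 0.0299 for Gclm, -0.0390 to 0.0745 for Hmox1, -0.101 to 0.265 for Slc7a11 and -0.175 to 0.0167 for Nfe2l2. The Gsr difference at PD7.5 ran from -0.0289 to 0.0900. Second steps ran in controls from -0.0114 to 0.0393 for Gclm and -0.173 to 0.0069 for Slc7a11, and in SL from -0.100 to 0.196 for Glo1 and -0.161 to 0.205 for Slc7a11. The interaction ran from -0.258 to 0.0380 for Glo1 and -0.0735 to 0.0454 for Gsr. The cause was not tested. With quantile normalization the calls of Slc7a11 at the first step in controls and Nfe2l2 at the second step in SL had adjusted p of 0.0608 and 0.0624. Low signal over background limits Slc7a11 at all ages and Nqo1 at ED7.5.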
